A study of Mus musculus with 6 samples.

Results

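The mitochondrial respiratory chain is built from 5 protein complexes, and the nuclear genes of their subunits were followed here through RNA-seq of the newborn mouse inner ear. Genes were taken by symbol (Nduf for complex I, Sdh for complex II, Uqcr for complex III, Cox4 to Cox8 for complex IV and Atp5 for complex V), keeping protein-coding genes and leaving out assembly factors and pseudogenes. Of 84 such genes, 80 had at least 1 CPM (a count scaled to the total of its library) in 3 or more of the 6 libraries, out of 14723 genes that did so and 39179 in the count files. They comprised 37 genes of complex I, 4 of complex II, 8 of complex III, 14 of complex IV and 17 of complex V. The 4 genes that did not pass were Cox6a2, Cox8b, Cox7b2 and Cox8c. The symbols also take in Atp5s, which is coupling factor B and no structural subunit, and Cox7a2l, known for a role in supercomplexes. That role was not examined in these mice. By symbol, Ndufa4 and Ndufa4l2 are counted with complex I. The symbols miss the complex III cytochrome Cyc1, the electron carrier Cycs and the acyl carrier subunit Ndufab1.

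Both groups were untreated wild-type C57Bl/6J mice on the day of birth (P0): 3 libraries came from the sensory epithelium of the cochlea, the organ of hearing, and 3 from that of the vestibule, the organ of balance. The tissue of 20 inner ears of 10 mice was pooled, 450 ng of RNA went into each library, and no source used here says whether the libraries of a tissue were made from separate pools of RNA, so p-values measure the spread between these libraries, which may be technical. Libraries held between 24464483 and 33664793 counts on genes. The labelled tissue was checked by markers: all 8 hair cell and all 6 supporting cell markers passed the filter, and their summed shares of the counts were 0.0531% to 0.0728% and 0.119% to 0.135% in the cochlea against 0.103% to 0.129% and 0.0375% to 0.0426% in the vestibule. Markers of other tissue took more of the counts than these: the 4 listed for cartilage held 1.045% to 1.781% in the cochlea against 1.297% to 1.637% in the vestibule, most of it from the collagen gene Col2a1, and the 5 for mesenchyme held 0.358% to 0.441% against 0.689% to 0.796%. All 9 passed the filter. Skeletal muscle markers stood out in cochlea replicate 3, where the 4 that passed of 10 listed took 0.0257% of the counts, against 0.0004% to 0.0024% in the other 5 libraries. The other 6 of that list did not pass, and Tnnc2 had 0 counts in every library. Results that rest on that library are given with and without it. Because the tissue was sequenced in bulk, fewer cells of a type and less RNA per cell cannot be told apart.

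Complexes I to IV pass electrons from NADH and succinate to oxygen, and complexes I, III and IV pump protons across the inner mitochondrial membrane while they do so. Complex V, the ATP synthase, lets the protons flow back and makes ATP. Most subunits are encoded in the nucleus and imported, while 13 are encoded by mitochondrial DNA, so each complex except complex II is assembled from the products of both genomes. Hair cells depend on mitochondrial ATP for ion transport and synaptic release, and inherited defects of mitochondrial function can cause deafness.

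None of the 80 subunit genes differed between the cochlea and the vestibule by the test used. With edgeR's quasi-likelihood test and Benjamini-Hochberg adjustment over all genes tested, 0 of 80 were called at a false discovery rate (FDR) of 0.05 in either direction, while 27.4% of all genes tested were called (11.6% higher in the cochlea and 15.8% higher in the vestibule). At an unadjusted p under 0.05 edgeR gave 4 of 80 (Uqcrh, Cox4i2, Atp5a1 and Atp5g1), against 38.9% of all genes. DESeq2 called 1 subunit, Cox4i2, against 30.6% of all genes, and limma-voom called 0, against 27.3%. Cox4i2 was also the 1 subunit called by edgeR with no filter on low counts (against 19.3% of all genes), and it was joined by Atp5g1 at the looser threshold of an FDR of 0.1 and a fold change of at least 1.3 (33.6%). With 1 library left out, edgeR called 5 subunits without cochlea replicate 3 (against 31.4% of all genes), 1 without cochlea replicate 1 (20.5%), and 0 without cochlea replicate 2 (19.2%) or vestibule replicate 1 (19.3%), 2 (15.9%) or 3 (23.6%). In scaled CPM (CPM after TMM, trimmed mean of M-values, scaling) the libraries of the tissues did not overlap for 2 of 80, Cox4i2 and Atp5g1, both higher in the cochlea, against 41.8% of all genes (19.5% higher in the cochlea). In plain CPM they did not overlap for 4 of 80, Cox4i2 higher in the cochlea and Cox6b2, Ndufb2 and Ndufs7 higher in the vestibule, also against 41.8% of all genes, and those of Atp5g1 overlapped.

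The estimates were small and most lay on the same side. Each log2 fold change is the vestibule minus the cochlea, and a value below 0 means lower in the vestibule. The median over the 80 subunits was -0.20, against 0.00 over all genes tested, and 71 of 80 were below 0, against 49.5% of all genes. By complex the medians were -0.13 (I), -0.18 (II), -0.15 (III), -0.22 (IV) and -0.26 (V). The 95% interval of the fold change lay within 2-fold in both directions for 76 of 80, against 65.7% of all genes, and the exceptions were Ndufa4l2, Cox4i2, Cox7a1 and Atp5e. It lay within 1.5-fold for 35 of 80. For all 80 the difference between the tissues was smaller than the wider of the ranges within a tissue, against 64.6% of all genes. With library sizes alone in place of TMM scaling, the median of all genes moved to 0.13 and that of the subunits to -0.08 (54 of 80 below 0), and the gap between these medians was -0.20 with TMM and -0.21 without. The size of the median rested on single libraries: it was -0.06 without vestibule replicate 1 (51 of 80 below 0) and -0.12 without cochlea replicate 1 (59 of 80), but -0.32 without cochlea replicate 3 (74 of 80) and -0.33 without vestibule replicate 3 (76 of 80).

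**Figure D1:**
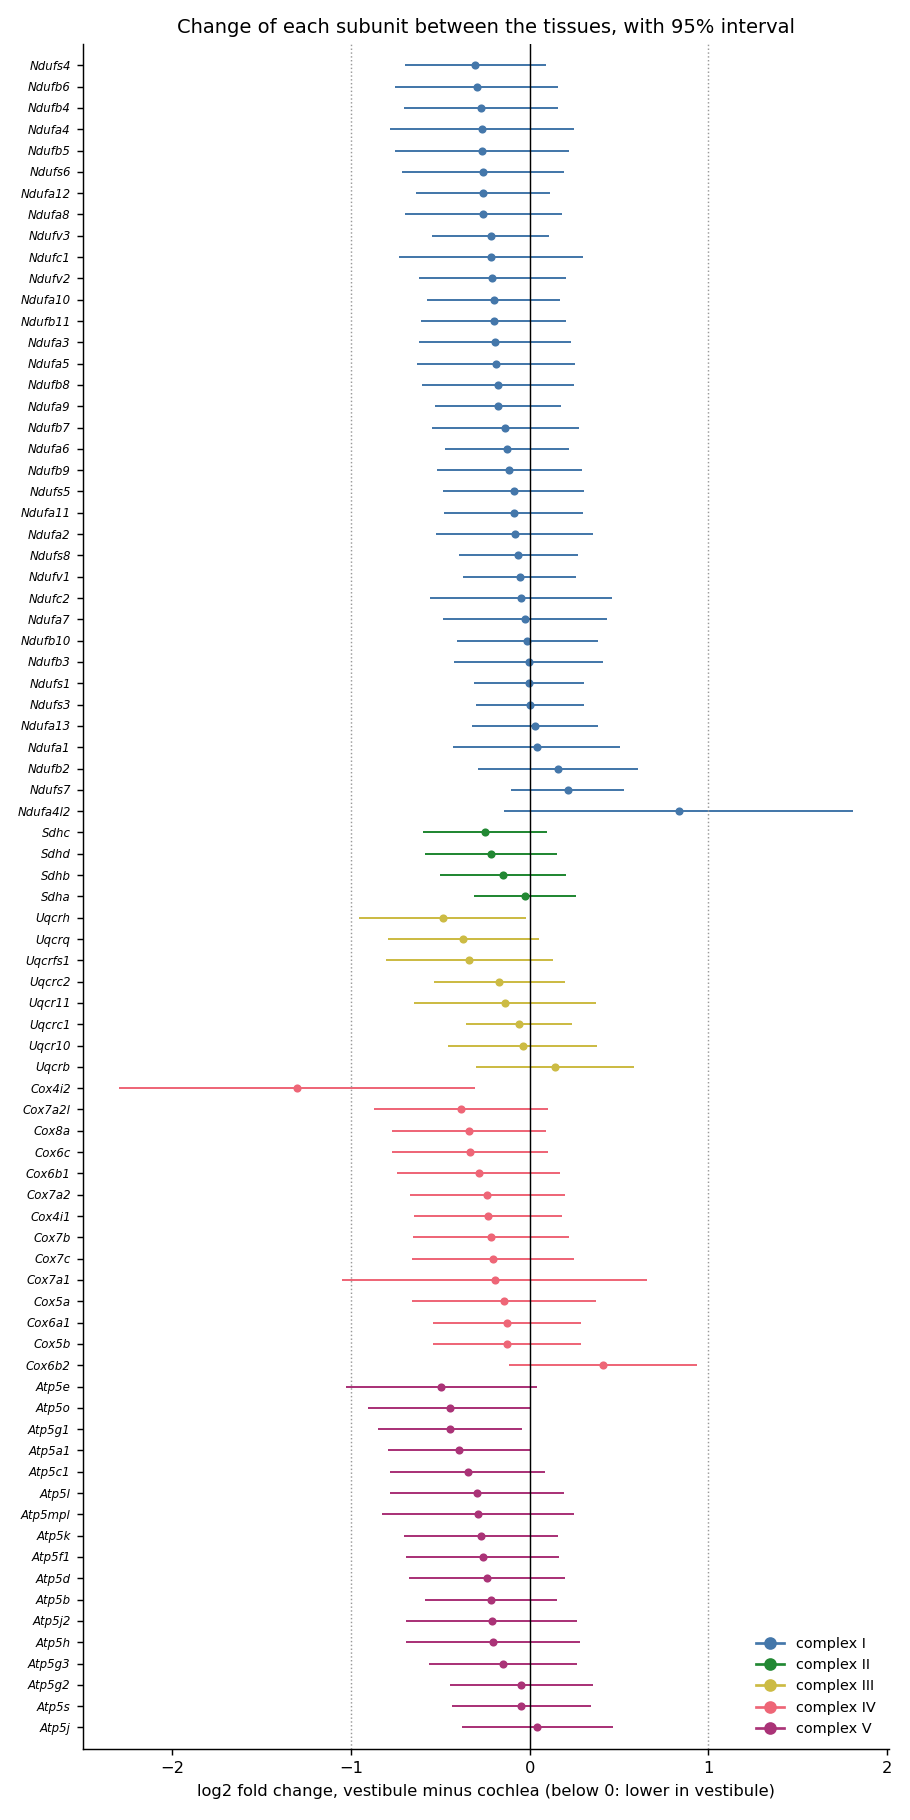
Log2 fold change of 79 of the 80 nuclear subunits (vestibule minus cochlea, x axis) with 95% intervals derived from edgeR's test, grouped and coloured by complex, with dotted lines at 2-fold in each direction. With TMM scaling the points of 70 of the genes drawn lie left of 0, and the intervals of 75 lie between the dotted lines.

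The subunits moved together between libraries of the same tissue. In scaled CPM, cochlea replicate 3 was the lowest cochlear library for 75 of 80 subunits, against 38.0% of all genes, and vestibule replicate 1 the lowest vestibular library for 78 of 80, against 38.3%. Vestibule replicate 3 was the highest of its tissue for 79 of 80, against 41.6% of all genes. The median log2 difference was 0.41 between cochlea replicates 1 and 3, and 0.53 between vestibule replicates 3 and 1. Both are larger in size than the median difference of -0.20 between the tissues. Ribosomal proteins followed the same order of libraries: all 83 cytosolic ribosomal proteins were lowest in cochlea replicate 3 and vestibule replicate 1 and highest in vestibule replicate 3 of their tissues, with medians of 0.35 and 0.71 for these differences, and so were 81.3%, 88.0% and 89.3% of 75 mitochondrial ribosomal proteins (medians 0.32 and 0.39). The summed CPM of the 80 genes was 9957, 9323 and 7659 in cochlea replicates 1, 2 and 3, and 7352, 8191 and 9353 in vestibule replicates 1, 2 and 3. The ranges of the tissues thus overlapped across most of their width. Other lists varied between the libraries too. Summed shares of cartilage markers were 1.045%, 1.403% and 1.781% in cochlea replicates 1, 2 and 3 and 1.637%, 1.356% and 1.297% in vestibule replicates 1, 2 and 3, and those of hair cell markers 0.0531%, 0.0624% and 0.0728% and 0.129%, 0.106% and 0.103%. Within both tissues these sums were thus highest in the library where the summed CPM of the subunits was lowest, and lowest where it was highest. All 5 neuron markers listed passed the filter, and their summed share was 0.0484%, 0.0475% and 0.0259% in the cochlea against 0.0320%, 0.0132% and 0.0159% in the vestibule. Cochlea replicate 3 was low in them as in the subunits, and their median log2 difference between cochlea replicates 1 and 3 was 1.73. In the vestibule they ran the other way, replicate 1 having the highest share, with a median of -0.89 between replicates 3 and 1. Between the tissues their median was -1.52, and 2 of 5 were called higher in the cochlea, and the part of these 3 lists in the subunits' values was not tested.

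**Figure D2:**
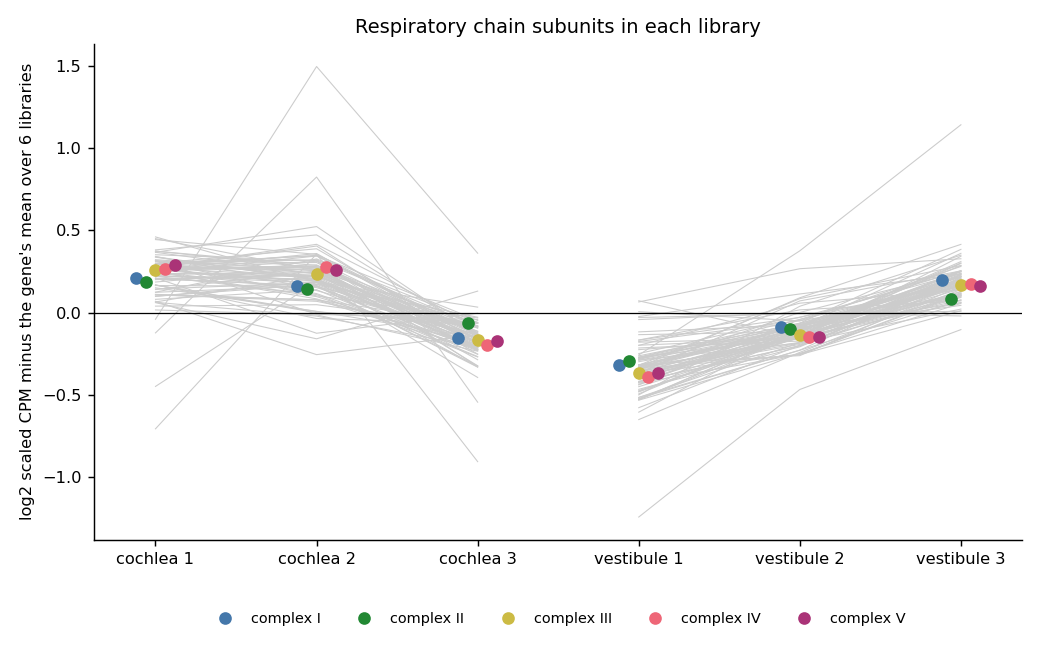
Log2 scaled CPM of each subunit minus its own mean over the 6 libraries (y axis) in each library (x axis), with a grey line for each gene within a tissue and dots for the median of each complex (the order of replicates has no meaning). All 5 complexes were high in cochlea replicates 1 and 2 and vestibule replicate 3, and low in cochlea replicate 3 and vestibule replicates 1 and 2.

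Gene length and the share of counts outside annotated genes also varied between these libraries. Of all listed counts, 4.30%, 4.73% and 7.45% fell on no annotated feature in cochlea replicates 1, 2 and 3, and 6.85%, 7.0% and 5.77% in vestibule replicates 1, 2 and 3. The subunit genes are short: 74 of 80 had less exon sequence than the median gene tested. Among all genes with at most 1719 bases of exon, the median log2 difference was 0.18 between cochlea replicates 1 and 3, and 0.37 between vestibule replicates 3 and 1. In the longest bin, from 7657 bases up, it was -0.21 and -0.27. The 43 subunits in the shortest bin had medians of 0.44 and 0.59, and the 11 subunits between 2477 and 3746 bases had 0.37 and 0.42, where all genes of that length had 0.08 and 0.11. Within each of the 4 shortest bins the subunits therefore differed more between these libraries than genes of their length did. The part of gene length in the differences was not tested further.

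**Figure D3:**
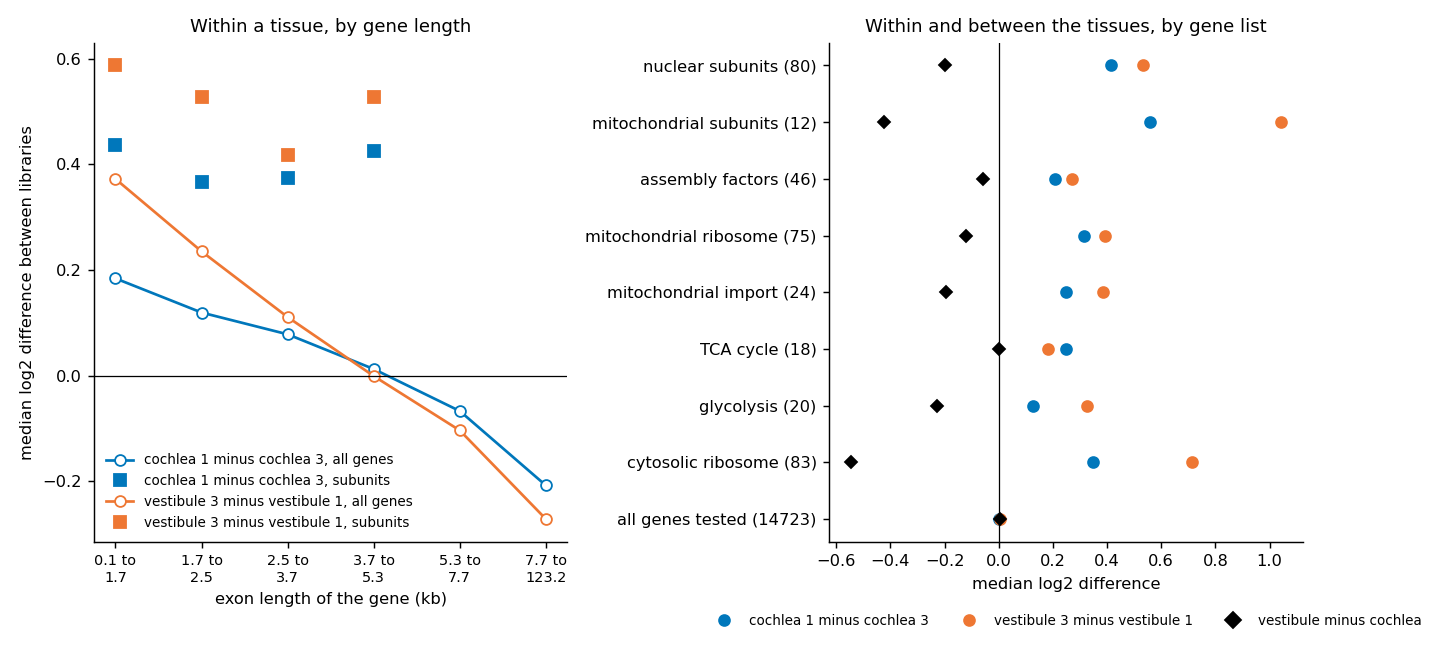
Left, the median log2 difference between libraries of the same tissue (y axis) by exon length in kb (x axis), for all genes (open circles) and for the subunits (squares, in bins with at least 7 of them); right, the same 2 differences and the difference between the tissues (diamonds) for gene lists, with the number of genes tested. The subunits lie above all genes in each of the 4 length bins shown, and within-tissue differences exceed the difference between the tissues in size for both sets of subunits.

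Promoter sequences are shown for the motifs of factors known to act on nuclear respiratory genes: nuclear respiratory factor 1 (NRF1, CGCATGCG), the ETS family with GABPA (CCGGAAG), YY1 (AAGATGGCG) and the estrogen-related receptors (TCAAGGTCA), each searched on both strands. RefSeq promoters of GRCm38.p6, which run from 250 bases before to 50 after the start, were matched for 66 of the 80 genes (71 promoters). NRF1 words were in 9 of 71 (12.7%), against 2.52% of 21263 promoters of coding genes, ETS words in 16 (22.5%, against 11.6%), YY1 words in 7 (9.9%, against 1.83%) and estrogen-related receptor words in 2 (2.8%, against 0.33%). Of the YY1 words, that of Atp5j began before the start and all others after it, at positions 23 to 36. The TATA word TATAAA was in 6 (8.5%, against 12.6%), and in 2.8% over the last 150 bases, against 6.73%. Shown for each complex is the promoter with most kinds of the NRF1, ETS and YY1 words or, among those with equally many (several genes of complex I and both of complex II with a word had 1 kind), that of the gene with the highest mean CPM, from 170 bases before to 30 after the start, 5′ to 3′ on the gene's strand, with these words in capitals: Ndufs3 at chr2:90904692-90904891, Sdhd at chr9:50603820-50604019, Uqcr11 at chr10:80406792-80406991, Cox6a1 at chr5:115348929-115349128 and Atp5j at chr16:84834947-84835146, all on the minus strand.
Ndufs3: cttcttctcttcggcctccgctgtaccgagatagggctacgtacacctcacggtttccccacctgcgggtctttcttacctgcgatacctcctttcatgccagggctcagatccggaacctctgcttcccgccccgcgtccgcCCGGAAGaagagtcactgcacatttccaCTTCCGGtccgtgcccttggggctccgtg
Sdhd: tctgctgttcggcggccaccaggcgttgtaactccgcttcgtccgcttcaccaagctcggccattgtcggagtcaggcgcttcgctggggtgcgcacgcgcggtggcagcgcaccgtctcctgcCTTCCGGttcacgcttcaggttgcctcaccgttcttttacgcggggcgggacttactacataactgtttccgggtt
Uqcr11: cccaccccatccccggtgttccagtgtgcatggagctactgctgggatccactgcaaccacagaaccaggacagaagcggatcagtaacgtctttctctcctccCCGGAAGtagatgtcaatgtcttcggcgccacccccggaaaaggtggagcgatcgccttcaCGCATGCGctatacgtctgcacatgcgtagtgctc
Cox6a1: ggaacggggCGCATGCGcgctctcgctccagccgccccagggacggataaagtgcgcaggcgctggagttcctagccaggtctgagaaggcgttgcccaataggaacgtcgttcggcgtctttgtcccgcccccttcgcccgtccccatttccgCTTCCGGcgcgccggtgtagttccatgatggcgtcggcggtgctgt
Atp5j: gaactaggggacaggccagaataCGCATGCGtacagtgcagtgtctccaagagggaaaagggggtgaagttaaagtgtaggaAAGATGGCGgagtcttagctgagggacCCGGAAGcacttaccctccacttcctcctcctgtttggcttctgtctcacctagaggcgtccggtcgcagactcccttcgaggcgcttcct

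In Atp5j the NRF1, YY1 and ETS words began 147, 88 and 61 bases before the start. Cox6a1 had an NRF1 word at -161 and an ETS word at -16, Uqcr11 an ETS word at -66 and an NRF1 word at -5, Sdhd an ETS word at -46, and Ndufs3 ETS words at -27 and 2. These 5 genes had log2 fold changes of 0.04 (Atp5j), -0.13 (Cox6a1), -0.14 (Uqcr11), -0.22 (Sdhd) and 0.00 (Ndufs3), and none was called. A match of letters is no evidence of binding. A further feature of these starts is that 19 of 80 subunits (23.8%) lie within 1000 bp of the start of a gene on the other strand, running away from it, against 9.4% of the 13933 coding genes tested. Sdhd thus faces the import gene Timm8b at 98 bp, and Ndufa7 the ribosomal gene Rps28 at 10 bp.

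The levels of the subunits were high. On the per-length scale of RPKM (library-scaled reads for each kilobase of a gene), averaged over the 6 libraries, the median of the 80 subunits was 62.2, against 6.59 over the 14722 genes of the deposited matrix. Of the 80, 55 reached the top 10% of all genes, which begins at 36.9 RPKM, 77 lay above the median gene, 24 had at least 100 RPKM and 6 had under 10. The medians by complex were 38.9 (I), 47.3 (II), 92.1 (III), 100.0 (IV) and 84.7 RPKM (V). The highest were Cox8a at 328, Atp5a1 at 299, Cox7a2l at 283, Cox6b1 at 283 and Ndufa4 at 276 RPKM, and the lowest Ndufb2 at 1.03. Compared within libraries on the deposited scale, Cox8a was above Atp5a1 in 6 of 6, by 0.13 ± 0.09 on the log2 scale (SD over libraries), while Atp5a1 was above Cox7a2l in 5, Cox7a2l above Cox6b1 in 3 and Cox6b1 above Ndufa4 in 4 of 6. Of the 79 pairs of neighbours in the order of the 80 levels, 8 had the same order in all 6 libraries. The order of the levels was nearly the same in the tissues, with a Spearman correlation across the 80 genes of 0.991, a description over genes that share libraries and lengths. Levels rest on the length used: with exon lengths of GENCODE vM21 the medians of complexes III, IV and V were 73.9, 72.0 and 67.1 RPKM, the length differed by over 1.5 times for 17 of 80, and Ndufa4 came to 98.1 RPKM. The first rank turned as well, with Atp5a1 at 298 and Cox8a at 288 RPKM by these lengths.

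**Figure D4:**
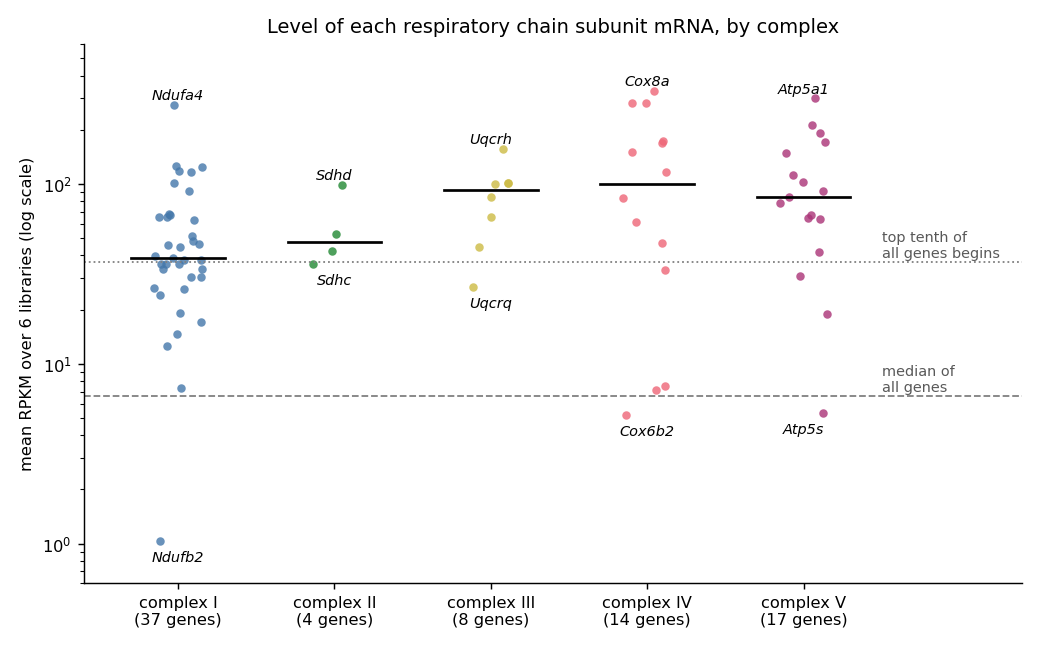
Mean RPKM over the 6 libraries (log scale, y axis) of each of the 80 subunits by complex (x axis), with the median of each complex as a bar and its highest and lowest gene named. The dashed line is the median of all genes at 6.59 and the dotted line the start of the top 10% at 36.9, which 55 subunits reach.

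Complex I takes electrons from NADH and passes them to ubiquinone. None of its 37 nuclear genes had an unadjusted p under 0.05, and 31 of 37 were below 0 (19 of 37 with library sizes alone). The 7 core subunits, which carry the flavin and the iron-sulfur clusters, had a median log2 fold change of -0.06, from -0.21 (Ndufv2) to 0.21 (Ndufs7), and 5 of 7 were below 0 (1 of 7 with library sizes alone). Ndufs7 holds the last iron-sulfur cluster before ubiquinone, and its scaled CPM was 46.1, 36.8 and 40.0 in the cochlea against 43.2, 47.5 and 51.7 in the vestibule. The libraries overlapped, since cochlea replicate 1 lay within the vestibular range. The 28 accessory subunits other than Ndufa4 and Ndufa4l2 had a median of -0.18, from -0.30 (Ndufs4) to 0.16 (Ndufb2), and 25 of 28 were below 0 (17 of 28 with library sizes alone). Ndufb2, an accessory subunit of the membrane arm, was the lowest of all 80 at 0.934 ± 0.079 RPKM in the cochlea against 1.13 ± 0.095 in the vestibule (SD, n = 3), on a gene of 5628 bases of annotated exon. Its interval for the log2 fold change was -0.28 to 0.60.

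Ndufa4 and Ndufa4l2 are paralogs that stood far apart in level. Ndufa4 was first listed with complex I, is found in complex IV and is counted here with complex I by its symbol. Its scaled CPM was 173, 161 and 114 in the cochlea against 92.3, 121 and 158 in the vestibule. The tissues overlapped in this gene, with a log2 fold change of -0.27 ± 0.22 (SE). Ndufa4l2, which is induced in low oxygen and is abundant in pericytes, had 3.81, 7.95 and 3.31 scaled CPM in the cochlea against 5.20, 8.06 and 13.7 in the vestibule. It had the largest positive fold change of the 80 at 0.83 ± 0.43 on the log2 scale, with an adjusted p of 0.185 by edgeR's quasi-likelihood test after Benjamini-Hochberg adjustment. Cochlea replicate 2 lay above vestibule replicate 1, and without vestibule replicate 3 the value was 0.41, without cochlea replicate 2 it was 1.33. All 4 endothelial markers were higher in each vestibular library than in each cochlear one and 3 of 4 were called, their summed share being 0.0055% to 0.0085% in the cochlea against 0.0322% to 0.0457% in the vestibule. The part of such cells in Ndufa4l2 was not tested.

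Complex II, succinate dehydrogenase, also works in the tricarboxylic acid cycle and has no mitochondrially encoded subunit. Its flavoprotein Sdha had 211, 181 and 221 scaled CPM in the cochlea against 198, 201 and 203 in the vestibule. Sdha did not follow the shared pattern of the libraries, since cochlea replicate 3 was its highest cochlear library, and its log2 fold change was -0.03, with an interval of -0.31 to 0.26. The iron-sulfur subunit Sdhb (104, 107 and 88.4 scaled CPM in the cochlea, 77.1, 87.7 and 106 in the vestibule) and the membrane anchors Sdhc (144, 125 and 114; 91.8, 109 and 121) and Sdhd (148, 149 and 113; 102, 115 and 135) did. Their log2 fold changes were -0.15 ± 0.15, -0.25 ± 0.15 and -0.22 ± 0.16 (SE). In each of them the tissues overlapped, and none of the 4 had an unadjusted p under 0.05. On the per-length scale Sdhd was the highest at 98.2 RPKM and Sdhc the lowest at 36.1.

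Complex III passes electrons from ubiquinol to cytochrome c. Of its 8 genes, 7 were below 0 (5 with library sizes alone). The hinge protein Uqcrh, which sits beside cytochrome c1, was the highest at 156 RPKM and had the largest estimate: its scaled CPM was 247, 263 and 174 in the cochlea against 131, 160 and 197 in the vestibule. Cochlea replicate 3 lay within the vestibular range. The log2 fold change was -0.49 ± 0.20 (SE), with an adjusted p of 0.110 by edgeR's quasi-likelihood test after Benjamini-Hochberg adjustment. Without cochlea replicate 3 it was -0.66 with an adjusted p of 0.0247 by edgeR. The core proteins Uqcrc1 and Uqcrc2 had -0.06 and -0.17, the Rieske iron-sulfur protein Uqcrfs1 had -0.34 and the small subunit Uqcrq, the lowest of the complex at 26.7 RPKM, had -0.37. The ubiquinol-binding subunit Uqcrb, at 0.14, was the member above 0 with TMM scaling.

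Complex IV, cytochrome c oxidase, reduces oxygen to water, and several of its subunits come in isoforms with restricted expression. The 10 broadly expressed subunits had log2 fold changes of -0.34 (Cox8a) to -0.13 (Cox5b), all below 0 also with library sizes alone, with a median of -0.22. Cox4i1, the common form of subunit 4, had 323, 319 and 234 scaled CPM in the cochlea against 210, 241 and 295 in the vestibule. Its replicates overlapped, as did those of the other 9. Cox7a2l, which was not counted among these 10, had 385, 425 and 301 scaled CPM in the cochlea against 213, 278 and 360 in the vestibule. Its log2 fold change was -0.38 ± 0.21 (SE). Cox7a2 and the common form of subunit 6a, Cox6a1, had -0.24 and -0.13, and Cox6b1 had -0.29.

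Cox4i2, the form of subunit 4 known from lung and from low oxygen, had the largest difference among the 80. Its scaled CPM was 4.72, 13.7 and 6.24 in the cochlea against 2.05, 3.51 and 4.52 in the vestibule. Every cochlear library lay above every vestibular library, although cochlea replicate 1 and vestibule replicate 3 nearly met, and cochlea replicate 2 stood far above the rest. The log2 fold change was -1.30 ± 0.44 (SE, interval -2.29 to -0.31), and the adjusted p of 0.0563 by edgeR's quasi-likelihood test after Benjamini-Hochberg adjustment was the smallest of the 80. DESeq2 called it, with an adjusted p of 0.00727 after Benjamini-Hochberg adjustment. By edgeR the value was -1.48 without cochlea replicate 3 (adjusted p of 0.0401) and -1.58 without cochlea replicate 1 (0.0326). Without cochlea replicate 2 it was -0.72. That library was also the highest of the 6 in the summed CPM of 20 genes of glycolysis and lactate transport, at 6955 against 4148 to 5376 in the others, and the relation of these values was not tested. On the per-length scale Cox4i2 reached 9.92 ± 5.42 RPKM in the cochlea against 4.42 ± 1.45 in the vestibule, against 181 ± 28.8 and 167 ± 20.7 for Cox4i1 (SD, n = 3). The gene spans 152754173 to 152765037 on chromosome 2 of GRCm38, and no stretch of 100 bases of its annotated transcripts was shared with another gene.

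The other restricted isoforms were low in every library. Cox6b2, known from testis, had 4.10, 6.37 and 4.26 scaled CPM in the cochlea against 5.85, 6.73 and 7.02 in the vestibule, a log2 fold change of 0.41 ± 0.23 (SE). Its groups overlapped through cochlea replicate 2. Cox7a1, the form of heart and skeletal muscle, had 2.38, 4.60 and 1.78 scaled CPM in the cochlea against 2.05, 2.33 and 3.29 in the vestibule, and its log2 fold change of -0.20 turned to 0.29 without cochlea replicate 2. Among the genes that did not pass the filter, the muscle isoform Cox6a2 had 0, 1 and 61 counts in the cochlea against 1, 7 and 3 in the vestibule, and the muscle isoform Cox8b had 2, 6 and 16 against 0, 3 and 2. Both were highest in cochlea replicate 3, as was skeletal muscle actin Acta1, with 45, 133 and 4305 counts in the cochlea against 90, 287 and 89 in the vestibule. Cox7a1 was lowest in that library. Cox7b2 and Cox8c had at most 1 count in any library.

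**Figure D5:**
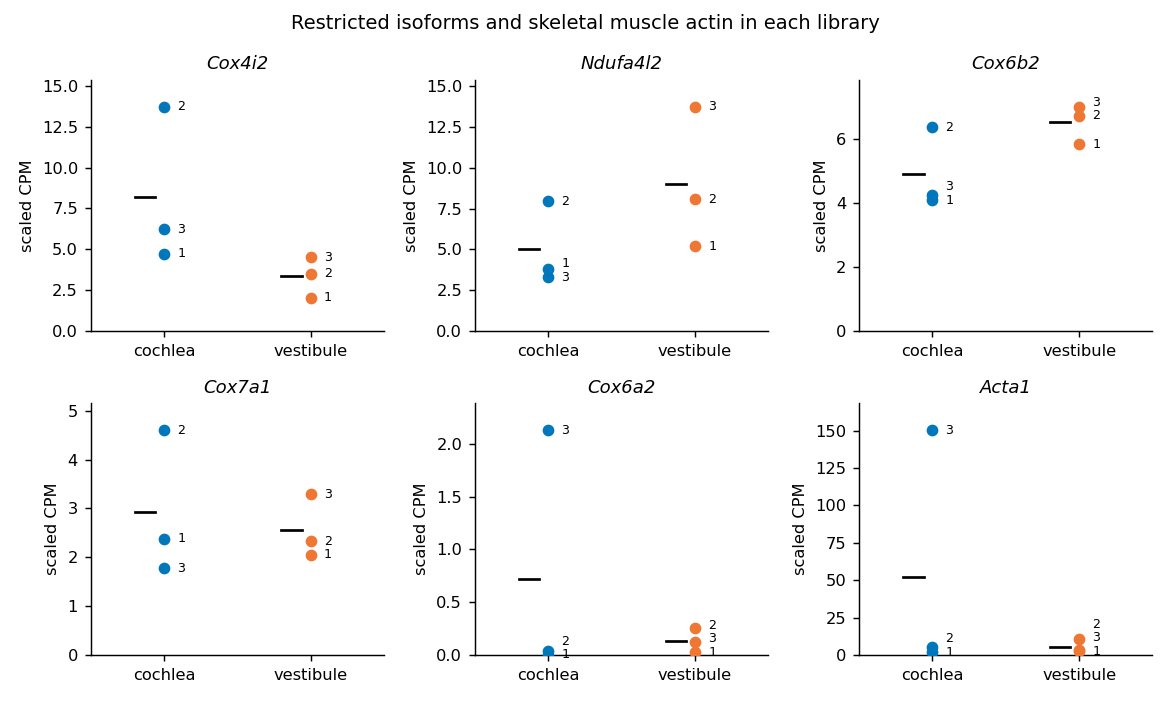
Scaled CPM (y axes, from 0) of 4 isoforms that passed the filter, of Cox6a2, which did not, and of skeletal muscle actin Acta1, in each cochlear and vestibular library, with replicate numbers beside the points and a bar at each mean. On this scale Cox4i2 is the isoform whose tissues do not overlap, at 4.72 to 13.7 against 2.05 to 4.52, and Cox6a2 and Acta1 stand out in cochlea replicate 3.

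Complex V had the lowest median of the 5 complexes at -0.26, and 16 of its 17 genes were below 0 (14 with library sizes alone). The 5 subunits of the catalytic F1 head ranged from -0.49 (Atp5e) to -0.21 (Atp5b). Atp5a1, the alpha subunit, had 1132, 1180 and 897 scaled CPM in the cochlea against 731, 776 and 934 in the vestibule. Cochlea replicate 3 lay below vestibule replicate 3, and the log2 fold change was -0.39 ± 0.17 (SE), with an adjusted p of 0.127 by edgeR's quasi-likelihood test after Benjamini-Hochberg adjustment. Atp5e, the epsilon subunit, had 148, 165 and 105 scaled CPM against 73.1, 97.1 and 127, with -0.49 ± 0.23 (SE). Without cochlea replicate 3, edgeR with Benjamini-Hochberg adjustment called Atp5e (-0.67, adjusted p of 0.0440), the gamma subunit Atp5c1 (-0.51, 0.0492) and the stalk subunit Atp5o (-0.61, 0.0329), all higher in the cochlea. With Uqcrh and Cox4i2 that made 5 of 80 subunits, against 31.4% of all genes in the same fit (12.8% higher in the cochlea). With all libraries the same test gave Atp5e, Atp5c1 and Atp5o adjusted p of 0.151, 0.210 and 0.131. The log2 fold changes of Atp5c1 and Atp5o were then -0.35 and -0.45. The membrane subunits Atp5j2, Atp5k, Atp5l and Atp5mpl lay between -0.30 and -0.21.

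The c-ring, which turns with the flow of protons, is made of a protein encoded by Atp5g1, Atp5g2 and Atp5g3, which differ in their import sequences. Atp5g1 had 126, 104 and 93.3 scaled CPM in the cochlea against 63.8, 80.4 and 92.6 in the vestibule. Its tissues did not overlap on this scale, by a margin of less than 1 scaled CPM, and the log2 fold change was -0.45 ± 0.17 (SE) with an adjusted p of 0.0916 by edgeR's quasi-likelihood test after Benjamini-Hochberg adjustment. Atp5g2 (70.0, 73.6 and 57.7 against 51.7, 65.4 and 77.7 scaled CPM) and Atp5g3 (263, 243 and 201 against 168, 211 and 257) had -0.05 ± 0.17 and -0.15 ± 0.18 (SE) and overlapped. In the deposited RPKM, Atp5g2 and Atp5g3 stood at 149 and 102 and Atp5g1 at 18.9. The order of the first pair rests on the length used: with GENCODE vM21 exon lengths Atp5g2 came to 39.3 and Atp5g3 to 102 RPKM. The count of Atp5g2 is uncertain, since 34.7% of the 100-base stretches of its transcripts occur in another annotated gene. The same held for over 20% of the stretches in Atp5o, Ndufb6 and Ndufa13, and 30 of 80 subunits shared at least 1 such stretch. Of the peripheral stalk, Atp5o overlaps other genes on both strands.

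The partner genes of the mitochondrial genome showed the same pattern of libraries more strongly. Of 13 mitochondrially encoded subunits, 12 passed the filter, mt-Nd4l having at most 1 count in a library. Their median log2 fold change was -0.42, from -0.53 (mt-Co3) to -0.30 (mt-Nd2), all 12 were below 0, and none was called by edgeR, with 0 of 12 at an unadjusted p under 0.05, nor by DESeq2 or limma-voom. Their share of the counts was 8.29%, 6.49% and 5.71% in the cochlea against 3.42%, 6.13% and 6.63% in the vestibule. Vestibule replicate 1 was the lowest of all, and the median log2 difference between vestibule replicates 3 and 1 was 1.04. Without vestibule replicate 1 the median between the tissues was -0.18. Of the nuclear genes missed by the symbols, Cycs had -0.49 ± 0.20, Cyc1 -0.09 ± 0.13 and Ndufab1 0.12 ± 0.16 on the log2 scale (SE), and none was called.

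Other mitochondrial gene lists are set against the 27.4% of all genes called (11.6% higher in the cochlea). Called at the FDR of 0.05 by edgeR were 1 of 46 assembly factors (2.2%; Cox10, which makes heme O, at -0.55), 1 of 75 mitochondrial ribosomal proteins (1.3%; Mrpl50, at -0.51), 1 of 10 genes of fission and fusion (10.0%; Mief1, at -0.48) and 2 of 18 genes of the tricarboxylic acid cycle (11.1%; citrate synthase Cs at -0.53 and Suclg2 at -0.57), all higher in the cochlea, and 1 of 24 import genes (4.2%; Timm44, at 0.62), higher in the vestibule. The medians of these lists were -0.06, -0.12, -0.13, 0.00 and -0.20, in this order, and with library sizes alone those of assembly factors and the tricarboxylic acid cycle were 0.06 and 0.12. Citrate synthase had 288, 254 and 243 CPM in the cochlea against 180, 197 and 209 in the vestibule, without overlap. Of the 20 genes of glycolysis and lactate transport, whose median was -0.23, the lactate transporters Slc16a3 (-1.49, higher in the cochlea) and Slc16a1 (0.71, higher in the vestibule) were called (10.0%). The list of cytosolic ribosomal proteins, also short and abundant, had 8 of 83 (9.6%) called higher in the cochlea, near the 11.6% of all genes, 0 in the vestibule and a median of -0.55. That count changed with the libraries: 0 were called without cochlea replicate 1 (8.07% of all genes higher in the cochlea), cochlea replicate 2 (7.12%), vestibule replicate 1 (8.63%) or vestibule replicate 2 (6.5%), while 43 were called without cochlea replicate 3 (12.8%), 51 without vestibule replicate 3 (10.0%) and 52 by DESeq2 (13.8%).

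Of 15 regulators of mitochondrial genes, 3 (20.0%) were called, against 27.4% of all genes. Esrrb, an orphan nuclear receptor, was higher in the vestibule, with 13, 14.6 and 19.4 CPM in the cochlea against 163, 187 and 172 in the vestibule, a log2 fold change of 3.35 ± 0.18 (SE) and an adjusted p of 5.93e-06 by edgeR's quasi-likelihood test after Benjamini-Hochberg adjustment. Its relative Esrrg was higher in the cochlea, with 50.4, 35.9 and 16.1 CPM against 7.69, 3.31 and 3.10, at -2.98 ± 0.47. Neither receptor's libraries overlapped between the tissues. Markers of many cell types were called higher in the vestibule, as Esrrb was. Of dark cells and stria these were 3 of 4 (median 2.27), with 1 of 4 below 0. Their summed share was 0.0483% to 0.0620% of the counts in the cochlea against 0.0663% to 0.0807%. Of hair cells they were 5 of 8 (median 0.84, shares given above), with 2 of 8 below 0. All 4 of melanocytes (median 2.27) and all 4 of macrophages (median 1.86) were called so. The same held for 3 of 4 of endothelium, 2 of 4 of Schwann cells and 3 of 5 of mesenchyme, where 1 was called higher in the cochlea. The part of these lists in Esrrb was not tested. The 6 supporting cell markers were all called higher in the cochlea, as Esrrg was. Within the cochlea Esrrg was lowest in replicate 3, as were the neuron markers in summed share, and the part of neither list in its values was tested. Gabpb1, the partner of GABPA, was higher in the cochlea at -0.85 ± 0.20 with 49.8, 56.7 and 36.1 CPM against 28.6, 26.0 and 31.4. Not called were the coactivator Ppargc1a (0.57 ± 0.36), Esrra (0.53 ± 0.19), Nrf1 (-0.32 ± 0.18), Gabpa (-0.17 ± 0.12) and the mitochondrial transcription factor Tfam (-0.40 ± 0.15). The subunits with an estrogen-related receptor word in the promoter, Sdhd and Atp5g3, had -0.22 and -0.15 and were not called.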

How the data were processed

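RNA-seq libraries of the cochlea (3) and the vestibule (3) were grouped by their tissue labels. The authors aligned paired reads of 100 bp with TopHat2 to GRCm38, counted read pairs per Ensembl gene with HTSeq and deposited these counts without normalization. The authors also deposited a matrix of log2 RPKM scaled by library size, used here, as RPKM, for levels only. The submitters' processing notes name TopHat2 2.1.0 and HTSeq 0.5.4p5. The 5 summary lines of each count file (18.5% to 20.6% of listed counts) stayed out of library sizes and tests.

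Genes reaching 1 CPM in at least 3 libraries (14723) entered the quasi-likelihood test of edgeR 4.0.16 (R 4.3.3) with TMM scaling, Benjamini-Hochberg adjustment over all of them, an FDR of 0.05 and no replicate block. On simulated counts for these 14723 genes, 200 of them changed, it called 0 of 200 changed 1.5-fold, 122 changed 2-fold and 182 changed 3-fold. In the data 4036 genes were called, which makes the adjustment less strict than in the simulation. These rates are therefore not those for the subunits, though small changes can be missed. Alternatives were DESeq2 1.42.0, limma-voom (limma 3.58.1), other scalings, no filter, an FDR of 0.1 together with a 1.3-fold change, a replicate block, and leaving out each library.

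Subunits and lists were chosen with earlier results of these data known. The naming rule covered called subunits, the highest, lowest and most changed of each complex, isoform families, the Sdh genes, up to 3 called genes of each other list, and Cyc1, Cycs, Ndufab1, Ppargc1a, Nrf1, Gabpa, Tfam and Esrra. Further subunits are named by role, as ends of a range, for a shown promoter or where they were counted, after their values were seen. Symbols, coordinates and exon lengths came from GENCODE vM21 (GRCm38), later than the release the authors counted on; 1572 of 39179 identifiers had no symbol there. The result of 1 subunit is not reported here by itself. Shared stretches were exact matches of 100 bases between annotated transcripts. Figures were drawn with matplotlib 3.10.9 in Python 3.11.15.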

Additional observations from a re-analysis of the deposited data

How the results depend on the processing

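The number of subunits called higher in the cochlea was 0 and became 1 with no filter on low counts, 1 with DESeq2 and 2 at an FDR of 0.1 together with a 1.3-fold change. At this last setting 33.6% of all genes were called in either direction. The same settings gave 1, 1 and 1 in complex IV, and the last gave 1 in complex V. With 1 library left out in turn the count ranged from 0 to 5 over all subunits, from 0 to 1 in complex III and in complex IV, and from 0 to 3 in complex V. No subunit was called higher in the vestibule under any of these alternatives. Medians of the log2 fold change of all subunits ranged from -0.33 to -0.06 with a library left out, and those of all 5 complexes stayed below 0. Library sizes alone moved the median of all genes from 0.00 to 0.13, and with this shift of the whole scale the number of subunits below 0 went from 71 to 54; of the 17 that turned, those named in the text were then at 0.0662 (Atp5g2), 0.0719 (Atp5s), 0.0868 (Ndufa7), 0.0907 (Sdha) and 0.056 (Uqcrc1). Ndufs3, at 0.00, was at -0.0176 with RLE size factors in edgeR, -0.0213 with no filter, -0.0178 with DESeq2, -0.0067 with limma-voom and -0.0046 with the replicate block. With a library left out, Atp5g2 ranged from -0.18 to 0.109 (above 0 without cochlea replicate 2 or vestibule replicate 1), Atp5g3 from -0.295 to 0.0102 (above 0 without vestibule replicate 1), Atp5s from -0.0956 to 0.0244 (above 0 without cochlea replicate 1), Sdha from -0.11 to 0.0312 (above 0 without cochlea replicate 3 or vestibule replicate 1) and Cox7a1 from -0.466 to 0.29 (above 0 without cochlea replicate 2). Likewise Ndufa7 ranged from -0.224 to 0.137 (above 0 without cochlea replicate 2 or vestibule replicate 1 or 2), Uqcrc1 from -0.12 to 0.0067 (above 0 without cochlea or vestibule replicate 1), Cox5b from -0.272 to 0.0096 and Uqcr11 from -0.333 to 0.0327 (both above 0 without vestibule replicate 1). Atp5j ranged from -0.0823 to 0.212 and Ndufa13 from -0.075 to 0.133 (both below 0 without cochlea or vestibule replicate 3), Uqcrb from -0.0382 to 0.331 (below 0 without vestibule replicate 3) and Ndufs3 from -0.0535 to 0.112 (below 0 without cochlea replicate 3 or vestibule replicate 2 or 3). The cause of the shifts with a library left out was not tested. Median RPKM by GENCODE vM21 length was 73.9 (complex III), 72.0 (IV) and 67.1 (V), and the share of promoters with a TATA word was 2.8% in the last 150 bases, where that of coding genes was 6.73% (8.5% and 12.6% over the whole window).

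Replicate numbers were not used to pair the libraries in the main fit. Same-numbered libraries had correlations of -0.18, -0.26 and -0.47 in their deviations from the tissue means. These values cannot tell whether the libraries were paired, since libraries of a tissue differed in a pattern shared by many genes. With the replicate block 0 subunits were called, the median of the subunits was -0.20, and 2618 genes were called in all, against 4036 without it.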
